A study of Vitis vinifera with 12 samples.

Results

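The flavonoid B-ring hydroxylases of grape (Vitis vinifera) were followed in fruit peels and young leaves of 3 cultivars, Bangalore blue, Red globe and Dilkhush. The series describes the cultivars as differing in anthocyanin, the red to blue pigment of grape skin. Every row named F3'H, F3'5'H or LOC100232896 was taken, where RefSeq gives F3'5'H as a synonym of LOC100232896. This gave 3 rows of 25210 in the peel table and 4 of 25253 in the leaf table, 7 of 50463 in all. Each of the 6 groups, named by cultivar and tissue, had 2 libraries, 12 in all. No age, treatment or pigment measurement is given in the labels. The deposited tables hold 1 value per group, in RPKM (reads corrected for transcript length and for how many reads were mapped), so the values below have no replicate error and no p-value.

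Both enzymes are cytochrome P450 proteins that add hydroxyl groups to the B-ring of flavonoids, and the number they add sets the kind of pigment. F3'H adds a single hydroxyl and opens the branch to cyanidin and peonidin, the red pigments. F3'5'H adds hydroxyls on both sides of the ring and opens the branch to delphinidin, petunidin and malvidin, the purple and blue pigments typical of dark grape skin. Both act on the same substrates, after chalcone synthase, chalcone isomerase and the flavanone hydroxylase F3H and before the reductase DFR and the dioxygenase LDOX. Grape carries F3'5'H as a family of close copies, whereas F3'H has few. B-ring hydroxylation also shapes flavonols and the tannins of leaves and seeds.

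F3'5'H was a Bangalore blue transcript in peel and a transcript of all cultivars in leaf. In peel it stood at 37.4 RPKM in Bangalore blue, 0.152 RPKM in Red globe and 0.0341 RPKM in Dilkhush. In leaf it stood at 28.1 RPKM in Bangalore blue, 12.5 RPKM in Red globe and 29.3 RPKM in Dilkhush. The peel order therefore had 1 cultivar far above a pair near 0, and the leaf order had Dilkhush and Bangalore blue close together above Red globe.

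F3'H was present in every column, and in peel it varied far less than F3'5'H. Its row also carries the identifier LOC100263810, so the value belongs to both genes together. In peel it was 42.0 RPKM in Bangalore blue, 42.8 RPKM in Red globe and 18.0 RPKM in Dilkhush. In leaf it was 64.7 RPKM in Bangalore blue, 25.0 RPKM in Red globe and 48.7 RPKM in Dilkhush. Bangalore blue and Red globe were thus nearly equal in peel with Dilkhush lowest, while in leaf Red globe was lowest.

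The further F3'5'H copy, LOC100232896, had values above 0 in leaf alone and stayed under 10 RPKM in every column. In peel it was listed at 0 for all 3 cultivars. In leaf its own row was 1.17 RPKM in Bangalore blue, 3.71 RPKM in Red globe and 9.62 RPKM in Dilkhush. A second leaf row joins it with LOC100853601, the next gene along the chromosome, which RefSeq classes as a pseudogene, and stood at 5.14 RPKM in Bangalore blue, 3.40 RPKM in Red globe and 6.85 RPKM in Dilkhush. Both leaf rows were highest in Dilkhush, but they differed in which cultivar was lowest. Reads of close copies, and of rows with several identifiers, may have been split or shared in the authors' counting, so the level of each copy is uncertain.

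**Figure D1:**
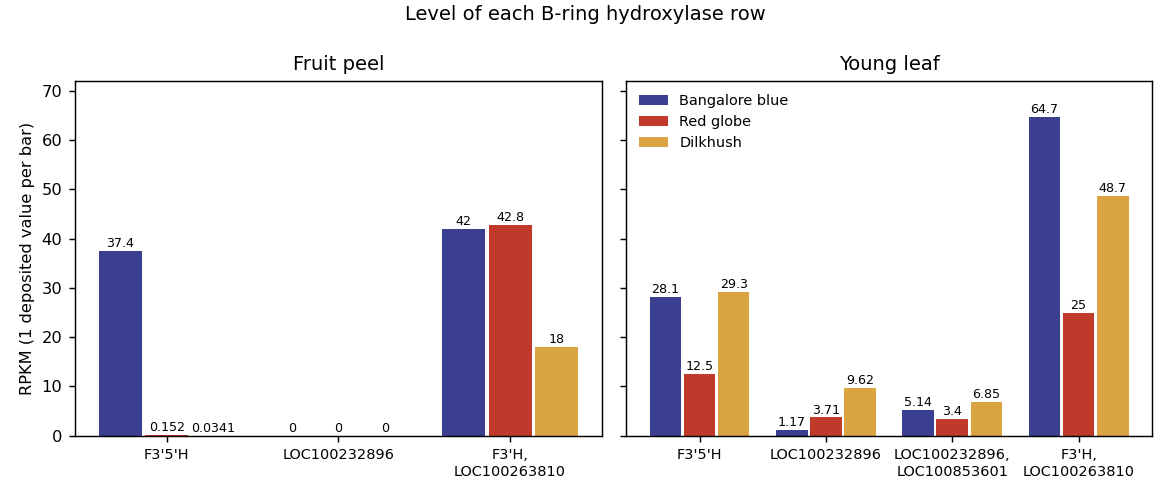
RPKM (vertical axis, from 0) of each row holding F3'5'H, LOC100232896 or F3'H in fruit peel (left) and young leaf (right). Each bar is the single deposited value of a cultivar, and there are no error bars because the tables hold no replicate columns. F3'5'H reached 37.4 RPKM in Bangalore blue peel against 0.152 RPKM in Red globe and 0.0341 RPKM in Dilkhush peel, whereas in leaf its 3 values lay between 12.5 and 29.3 RPKM.

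Peel and leaf values come from tables that may have been normalized apart, so the place of each gene within its own column was used beside the RPKM. F3'5'H exceeded 87.2% of rows in Bangalore blue peel. It exceeded 27.3% of rows in Red globe peel and 19.7% in Dilkhush peel. Rows at 0 made up 17.2% of the Red globe column and 16.9% of the Dilkhush column, so among rows above 0 in Dilkhush peel F3'5'H was above 3.34% of them. In leaf it exceeded 80.6% of rows for Bangalore blue, 63.6% for Red globe and 81.7% for Dilkhush. F3'H stayed in the upper part of every column, between 75.2% in Dilkhush peel and 92.5% in Bangalore blue leaf. The LOC100232896 row of its own exceeded 32.4% of rows in Bangalore blue leaf, 43.3% in Red globe leaf and 57.9% in Dilkhush leaf.

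The tissue labels were checked against berry and leaf markers, again across tables that may not share a scale. The 11 rows of ripening-induced GRIP genes and thaumatin-like TL genes summed to between 17814 and 46133 RPKM in peel and between 505 and 703 RPKM in leaf, and none was at 0. The 3 photosynthesis genes CHLH, PSBP1 and PSBP2 summed to between 279 and 553 RPKM in peel and between 686 and 2755 RPKM in leaf. Each sum was thus highest in the tissue its label names. By row, GRIP55 went the other way in Bangalore blue, at 50.8 RPKM in peel and 76.9 RPKM in leaf. Some berry rows, such as that of TL3, join different identifiers in peel and leaf. Transfer RNA rows held 33.6% of the Red globe peel total, against 20.7% for Dilkhush and 13.9% for Bangalore blue peel. Sequencing depth behind the columns is unknown. In these bulk tissues fewer cells with a transcript and less transcript per cell cannot be told apart.

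The ratio of F3'5'H to F3'H, which does not depend on how a column was scaled, set Bangalore blue peel apart from the other peels. Its F3'H side is the row shared with LOC100263810, so the ratio to F3'H alone is unknown. The ratio was 0.891 in Bangalore blue peel, 0.00356 in Red globe peel and 0.0019 in Dilkhush peel. In leaf it was 0.434 for Bangalore blue, 0.499 for Red globe and 0.601 for Dilkhush. The leaf ratios fell within a narrow range. For the F3'5'H row alone, the Bangalore blue peel ratio was the highest of the 6 columns and the other peel ratios were the lowest. Bangalore blue had the highest ratio of the cultivars in peel and the lowest in leaf.

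Expressed as a share of the summed RPKM of the F3'5'H row and the joint F3'H row, F3'5'H made up 47.1% in Bangalore blue peel. The share was 0.354% in Red globe peel and 0.189% in Dilkhush peel. In leaf the share was 30.3% for Bangalore blue, 33.3% for Red globe and 37.5% for Dilkhush. Adding the LOC100232896 rows to the F3'5'H side left the peel ratios as they were. It brought the leaf ratios to 0.531 for Bangalore blue, 0.783 for Red globe and 0.939 for Dilkhush, which kept the leaf order. These leaf sums hold the row joined with the pseudogene LOC100853601. The peel sums hold no such row, so peel and leaf sums are not alike. With the rows summed, Dilkhush leaf, at 0.939, stood above Bangalore blue peel, at 0.891. The first place of Bangalore blue peel among the columns therefore holds for the F3'5'H row alone. The ratios of Red globe and Dilkhush peel rest on F3'5'H values near 0, so their order between themselves is not given weight. RPKM is corrected for transcript length, so the ratio compares transcripts and not enzyme or pigment.

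**Figure D2:**
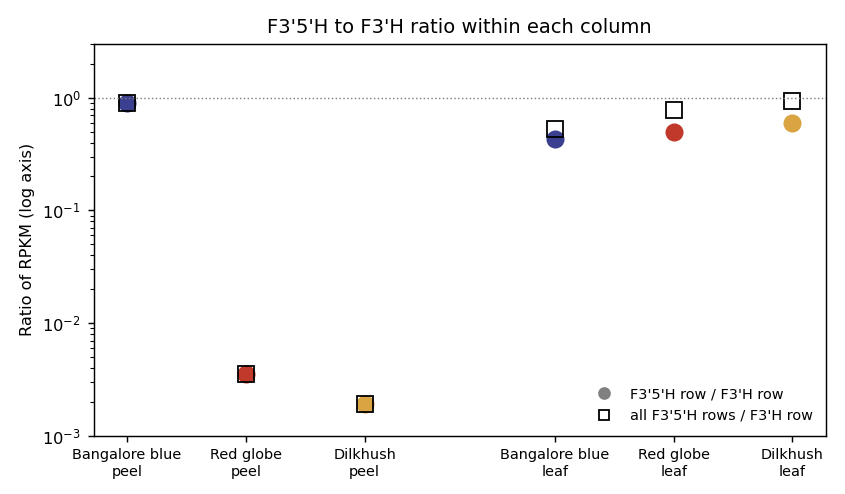
Ratio of F3'5'H to F3'H RPKM (log axis) in each of the 6 columns, peels on the left and leaves on the right. Filled circles use the F3'5'H row and open squares sum all rows holding F3'5'H or LOC100232896. The F3'H side is the row that also carries LOC100263810. In leaf the squares include the row joined with LOC100853601, which peel lacks. The dotted line marks equal levels. Red globe and Dilkhush peel lie at 0.00356 and 0.0019, far below the other 4 columns, which lie between 0.434 and 0.891 for the F3'5'H row.

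Differences between cultivars were taken within each table on the log2(RPKM + 1) scale, which understates those of low genes. Calls required a difference of 2 or more in either direction (4-fold) and 10 RPKM or more in the higher cultivar. The 3 comparisons of a tissue share their columns and are not independent of each other. Of the member rows, 2 of 3 in peel and 2 of 4 in leaf reached 10 RPKM in a column, and these were F3'5'H and F3'H in both tissues.

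Bangalore blue peel against Dilkhush peel gave 1 called member of 3 rows, where 2.31% of all rows, and 6.09% of rows at the 10 RPKM floor, were called. F3'5'H was 37.4 RPKM in Bangalore blue against 0.0341 RPKM in Dilkhush, a log2 difference of 5.22, or 37.2-fold on the RPKM + 1 scale. Of 9551 rows at or above 10 RPKM in the higher cultivar, 50 had a larger difference in either direction. F3'H, at 42.0 RPKM in Bangalore blue against 18.0 RPKM in Dilkhush, differed by 1.18 and was not called. The typical size of difference over the same rows was 0.41 (median), and 95% of rows differed by less than 2.26, so the F3'H difference was larger than most and inside that range.

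Red globe peel against Dilkhush peel gave no called member of 3 rows, where 2.19% of all rows, and 5.76% of rows at the floor, were called. F3'H was the member that differed, at 42.8 RPKM in Red globe against 18.0 RPKM in Dilkhush (log2 difference 1.21, and 1.36 after setting column totals equal with transfer RNA left out). F3'5'H, at 0.152 RPKM in Red globe against 0.0341 RPKM in Dilkhush, was too low in both for a fold to be given. Red globe peel thus had more F3'H transcript than Dilkhush peel, short of 4-fold, and next to none of the F3'5'H row. Other F3'5'H copies could not be identified, so their level in this peel is unknown.

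Bangalore blue peel against Red globe peel gave 1 called member of 3 rows, where 1.97% of all rows, and 5.25% of rows at the floor, were called. F3'5'H was 37.4 RPKM in Bangalore blue against 0.152 RPKM in Red globe (log2 difference 5.06, or 33.3-fold on the RPKM + 1 scale), and 37 of 9459 rows at the 10 RPKM floor differed more. F3'H was 42.0 RPKM in Bangalore blue against 42.8 RPKM in Red globe, a difference of -0.03 that became 0.02 with columns scaled to equal medians, so no direction is read from it. Between these peels, the hydroxylases therefore differed in F3'5'H and hardly in F3'H.

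In leaf no member row was called in any comparison. The share of all rows called was 1.81% for Bangalore blue against Dilkhush, 2.44% for Red globe against Dilkhush and 2.39% for Bangalore blue against Red globe. Of rows at the floor it was 4.05%, 5.3% and 5.21% in the same comparisons. Between Bangalore blue and Dilkhush leaf, F3'5'H differed by -0.06, at 28.1 RPKM in Bangalore blue against 29.3 RPKM in Dilkhush. F3'H differed by 0.40, at 64.7 RPKM in Bangalore blue against 48.7 RPKM in Dilkhush. The F3'5'H difference was smaller than the median size over rows at the floor, which was 0.26.

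Red globe leaf was below both other leaves in F3'5'H and F3'H. F3'5'H was 12.5 RPKM in Red globe against 29.3 RPKM in Dilkhush (log2 difference -1.17), and F3'H was 25.0 RPKM in Red globe against 48.7 RPKM in Dilkhush (-0.94). All 4 member rows were lower in Red globe than in Dilkhush leaf. For Bangalore blue minus Red globe the differences were 1.11 for F3'5'H and 1.34 for F3'H. Of the 4 member rows 3 were higher in Bangalore blue than in Red globe leaf and 1 was lower, LOC100232896, at 1.17 RPKM in Bangalore blue against 3.71 RPKM in Red globe (-1.12). The F3'5'H and F3'H sizes lay above the median of 0.45 for Red globe against Dilkhush and 0.48 for Bangalore blue against Red globe, and below the size that 95% of rows stay under (2.08 and 2.04).

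The photosynthesis markers were lowest in Red globe leaf, as F3'5'H and F3'H were. CHLH, a subunit of the enzyme that inserts magnesium into chlorophyll precursors, was 138 RPKM in Red globe leaf, against 629 RPKM in Dilkhush and 597 RPKM in Bangalore blue leaf. The 3 markers summed to 686 RPKM in Red globe leaf, 2482 RPKM in Dilkhush leaf and 2755 RPKM in Bangalore blue leaf, with 3 of 3 lower in Red globe than in either other cultivar and none at 0. In peel the summed markers were again lowest in Red globe, at 279 RPKM, against 403 RPKM in Bangalore blue and 553 RPKM in Dilkhush. F3'H was not lowest in Red globe peel, at 42.8 RPKM against 18.0 RPKM in Dilkhush peel. Any part of the markers in the leaf hydroxylase difference was not tested.

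LOC100232896 was the leaf member with the largest difference, at 1.17 RPKM in Bangalore blue against 9.62 RPKM in Dilkhush (log2 difference -2.29). It passed the 4-fold size and stayed just under the 10 RPKM floor, so it was not called. Without a floor it would be, and 715 rows in place of 457 were then called in this comparison. Red globe leaf, at 3.71 RPKM, was between the other cultivars. The row joining LOC100232896 with LOC100853601 differed by -0.36 in the same comparison, so the joint row did not show the same size of difference.

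**Figure D3:**
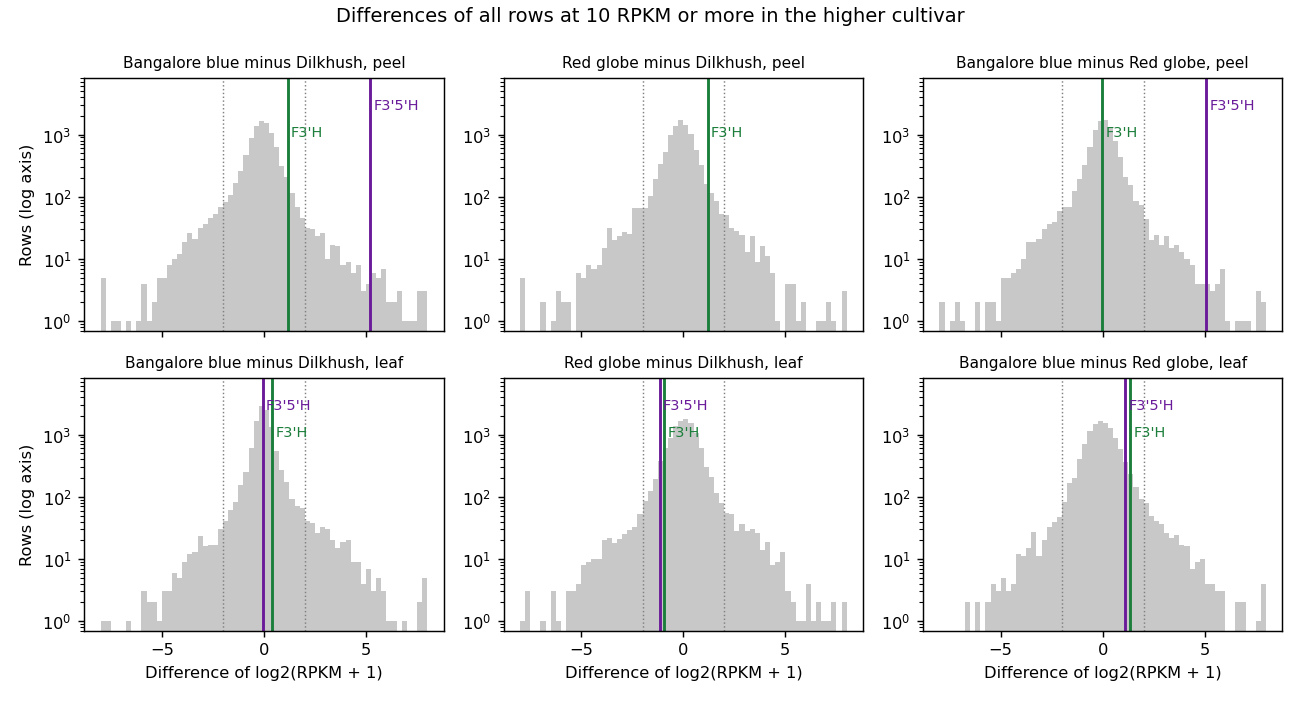
Distribution of the difference of log2(RPKM + 1) over all rows with at least 10 RPKM in the higher cultivar, for 3 comparisons in peel (top) and leaf (bottom); rows beyond 8 in size are drawn at 8, the count axis is logarithmic and dotted lines mark the 4-fold size. F3'5'H lies far out at 5.22 and 5.06 in the Bangalore blue peel comparisons and is not drawn for Red globe against Dilkhush peel, where it was under 10 RPKM in both. F3'H in every panel and F3'5'H in the 3 leaf panels lie inside the 4-fold lines.

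The neighbouring enzymes of the pathway put the hydroxylases in context. In peel 14 pathway rows were measured, meaning at least 1 RPKM in a column. For Bangalore blue against Dilkhush 6 were called higher and 1 lower, with a median log2 difference of 2.05 against -0.06 over all measured rows. For Red globe against Dilkhush 5 were called higher and 1 lower (median 1.37 against -0.05). For Bangalore blue against Red globe 1 was called higher and 0 lower (median 0.70 against -0.02). Of all rows, 2.31%, 2.19% and 1.97% were called in these comparisons, and of rows at the floor 6.09%, 5.76% and 5.25%. In leaf 13 rows were measured. Calls were 0 higher and 1 lower for Bangalore blue against Dilkhush, and 1 higher and 0 lower for Red globe against Dilkhush. For Bangalore blue against Red globe they were 0 higher and 2 lower. Of all rows, 1.81%, 2.44% and 2.39% were called in these leaf comparisons, and of rows at the floor 4.05%, 5.3% and 5.21%. No pathway result is read from so few leaf calls.

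The enzymes around the B-ring step did not share the F3'5'H pattern in Red globe peel. F3H, which makes the dihydroflavonol that both hydroxylases use, was 277 RPKM in Bangalore blue, 117 RPKM in Red globe and 7.48 RPKM in Dilkhush peel. DFR, which reduces the hydroxylated product, was 369 RPKM in Bangalore blue, 244 RPKM in Red globe and 108 RPKM in Dilkhush peel. UFGT, which glucosylates the finished pigment, was 297 RPKM in Bangalore blue, 308 RPKM in Red globe and 2.09 RPKM in Dilkhush peel. Red globe peel therefore held transcript of the steps before and after the B-ring, with the F3'5'H row near 0.

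The anthocyanin methyltransferase FAOMT was 50.8 RPKM in Bangalore blue peel, 14.1 RPKM in Red globe peel and listed at 0 in Dilkhush peel. LDOX was 2010 RPKM in Bangalore blue, 510 RPKM in Red globe and 171 RPKM in Dilkhush peel. In leaf, LDOX was 927 RPKM in Bangalore blue, 686 RPKM in Red globe and 881 RPKM in Dilkhush, the same order as F3'H. FLS1 is the flavonol synthase that competes with DFR for the hydroxylated substrate. It was 105 RPKM in Bangalore blue, 252 RPKM in Red globe and 26.1 RPKM in Dilkhush leaf. Red globe leaf was thus highest in FLS1 and lowest in both hydroxylases. The peels did not share this, with FLS1 at 78.9 RPKM in Bangalore blue, 22.1 RPKM in Red globe and 40.6 RPKM in Dilkhush.

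Set against DFR in the same column, F3'H was steady across peels, at 0.114 of the DFR level for Bangalore blue, 0.176 for Red globe and 0.167 for Dilkhush. In leaf it was 0.202 for Bangalore blue, 0.107 for Red globe and 0.161 for Dilkhush. F3'5'H was at 0.101 of the DFR level in Bangalore blue peel, 0.000625 in Red globe peel and 0.000317 in Dilkhush peel. In leaf it was at 0.0879 of DFR for Bangalore blue, 0.0536 for Red globe and 0.0968 for Dilkhush. Relative to DFR, then, F3'5'H in Bangalore blue peel was at a level like that of the Bangalore blue and Dilkhush leaves. F3'H stood at 0.152 of the F3H level in Bangalore blue peel, 0.365 in Red globe peel and 2.40 in Dilkhush peel, so in Dilkhush peel it exceeded the enzyme before it.

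**Figure D4:**
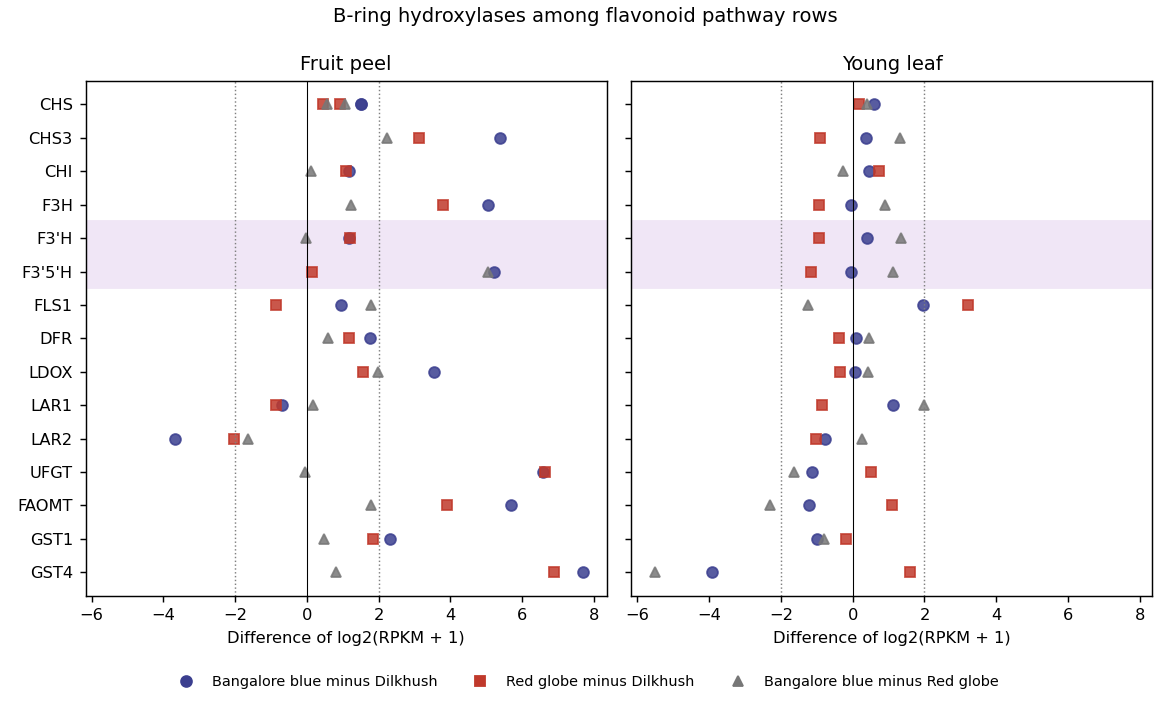
Difference of log2(RPKM + 1) between cultivars (horizontal axis) for the flavonoid pathway rows in peel (left) and leaf (right), ordered roughly from early to late steps, with the B-ring hydroxylases shaded and dotted lines at the 4-fold size. Each symbol is a single difference of deposited values. In peel F3'5'H is at 5.22 and 5.06 in both Bangalore blue comparisons and at 0.16 for Red globe minus Dilkhush, whereas UFGT is at 6.64 for Red globe minus Dilkhush.

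Among regulators of the pathway, 10 of 13 rows in peel and 13 of 13 in leaf were measured. In peel 2 were called higher in Bangalore blue than in Dilkhush, where 6.09% of all rows at the floor were called, and 0 were called in the other peel comparisons. For Bangalore blue against Dilkhush peel 5 of the 10 were higher and 5 lower, with a median log2 difference of 0.26 against -0.06 over all measured rows. The medians were 0.07 against -0.05 for Red globe against Dilkhush peel and 0.54 against -0.02 for Bangalore blue against Red globe peel. One called row was LOC100853472, for which RefSeq gives MYBA1 and MYBA3, activators of anthocyanin genes, as synonyms. It was 102 RPKM in Bangalore blue, 36.1 RPKM in Red globe and 22.5 RPKM in Dilkhush peel. The other called row was the MYB repressor MYBC2-L1, at 92.0 RPKM in Bangalore blue, 25.7 RPKM in Red globe and 21.5 RPKM in Dilkhush peel. Both had Bangalore blue highest, as F3'5'H did, but neither was near 0 in the other peels.

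The remaining regulators above 10 RPKM in peel differed less. MYB4A, a repressor, was 141 RPKM in Bangalore blue, 93.4 RPKM in Red globe and 77.3 RPKM in Dilkhush peel. WDR1 and WDR2, WD-repeat partners of the MYB and bHLH factors, were 33.8 and 23.0 RPKM in Bangalore blue, 17.3 and 27.9 RPKM in Red globe, and 22.3 and 26.8 RPKM in Dilkhush peel. The bHLH factor MYC1 was 10.3 RPKM in Bangalore blue, 6.67 RPKM in Red globe and 6.27 RPKM in Dilkhush peel. MYBPA1, an activator of the tannin branch, was 6.33 RPKM in Bangalore blue, 13.5 RPKM in Red globe and 10.9 RPKM in Dilkhush peel.

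In leaf, where F3'5'H was present in all cultivars, LOC100853472 was 1.43 RPKM in Red globe, 0.58 RPKM in Dilkhush and listed at 0 in Bangalore blue. F3'5'H stood at 12.5 RPKM or more in the same leaf columns, and a link between these rows was not tested. MYC1 was 27.6 RPKM in Bangalore blue, 15.1 RPKM in Red globe and 24.7 RPKM in Dilkhush leaf. The bHLH factor MYCA1 was 64.8 RPKM in Bangalore blue, 41.9 RPKM in Red globe and 68.5 RPKM in Dilkhush leaf. Both bHLH factors were lowest in Red globe leaf, as were F3'5'H and F3'H.

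MYBC2-L1 was 63.0 RPKM in Bangalore blue, 8.78 RPKM in Red globe and 18.4 RPKM in Dilkhush leaf, and it was the 1 regulator called in leaf, higher in Bangalore blue than in Red globe, where 5.21% of all rows at the floor were called. WDR2 was 44.5 RPKM in Bangalore blue, 25.8 RPKM in Red globe and 35.7 RPKM in Dilkhush leaf, and WDR1 was 16.6 RPKM in Bangalore blue, 9.69 RPKM in Red globe and 11.6 RPKM in Dilkhush leaf. MYBA6, an activator of leaf pigmentation, was 6.29 RPKM in Bangalore blue, 21.5 RPKM in Red globe and 17.4 RPKM in Dilkhush leaf, an order unlike that of either hydroxylase. The flavonol regulator MYB12 was 6.56 RPKM in Bangalore blue, 10.6 RPKM in Red globe and 7.69 RPKM in Dilkhush leaf. MYBPA1, MYBC2-L2, MYB4A and MYB4B differed by at most 0.42 on the log2 scale in each leaf comparison.

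The F3'5'H pattern across both tissues was uncommon. Of 23590 rows present once in both tables, 8346 had at least 10 RPKM in all 3 leaf columns. Of these, 5 also had at least 10 RPKM in Bangalore blue peel and under 1 RPKM in Red globe and Dilkhush peel, limits chosen after the values were seen. They were F3'5'H, LOC100243349, LOC100243565, LOC100258789 and LOC100265220, and none of the last 4 has a symbol in the files or in RefSeq. The same pattern with Red globe as the high peel held for 1 row, CHIT3, and with Dilkhush for 8 rows. A leaf level of 10 RPKM with under 1 RPKM in Red globe and Dilkhush peel was commoner, at 333 rows, of which 314 were under 1 RPKM in Bangalore blue peel too.

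Likeness to each hydroxylase was measured as the distance between log2(RPKM + 1) profiles over the 6 columns, after removing each row's mean within a table, among 8429 rows with at least 10 RPKM in a column of each table. The rows nearest to F3'5'H were LOC100258792 (distance 0.89), LOC100233114 (1.13) and LOC100258789 (1.16), where the median distance was 4.38. The nearest, LOC100258792, was 470 RPKM in Bangalore blue, 6.99 RPKM in Red globe and 10.9 RPKM in Dilkhush peel. It was thus not near 0 in any peel. LOC100233114 was 95.6 RPKM in Bangalore blue, 0.377 RPKM in Red globe and 1.81 RPKM in Dilkhush peel. LOC100258789 was 99.6 RPKM in Bangalore blue peel, listed at 0 in Red globe peel and 0.53 RPKM in Dilkhush peel. Of 146 compared rows with a symbol, the nearest were the glutathione S-transferase GST3 (2.203), LDOX (2.27) and the chalcone synthase CHS3 (2.39). None of the 3 was as near as the 10 closest rows, which have no symbol.

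Distances from F3'H were smaller, for its nearest rows and for the median row alike. The distance is not scaled by how much a row varies, so its sizes are not compared between F3'5'H and F3'H. The nearest rows were LOC100254064 (distance 0.09), LOC100248244 (0.16) and LOC100263518 (0.22), where the median distance was 1.63. LOC100254064 was 248 RPKM in Bangalore blue, 238 RPKM in Red globe and 110 RPKM in Dilkhush peel, and 111 RPKM in Bangalore blue, 41.6 RPKM in Red globe and 80.9 RPKM in Dilkhush leaf. The nearest rows with a symbol were 4CL, which activates the coumaric acid that enters the flavonoid pathway (0.57), DFR (0.80) and MYC1 (0.88). They ranked 39, 255 and 387 among all rows compared. The distance is over 6 columns that all rows share and describes these columns alone.

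The genes around F3'5'H were also described, in gene order. In RefSeq assembly GCF_030704535.1, LOC100232896 and F3'5'H lie on the same chromosome with 5 genes between them, and LOC100853601 is next to LOC100232896. The genome build of the files is not given in the sources used here, so only gene order was used. One of the 5, LOC104877273, was 6.92 RPKM in Bangalore blue, 0.0195 RPKM in Red globe and 0.0193 RPKM in Dilkhush peel. In leaf it was 8.30 RPKM in Bangalore blue, 4.30 RPKM in Red globe and 20.9 RPKM in Dilkhush. It followed F3'5'H in being near 0 in the same peels and present in every leaf, although it stayed under 10 RPKM in peel.

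LOC100248071, the fifth gene on the other side of F3'5'H, was 1.33 RPKM in Bangalore blue peel, 0.0221 RPKM in Red globe peel and listed at 0 in Dilkhush peel. The separate LOC100853601 row was 0.913 RPKM in Bangalore blue, 0.171 RPKM in Red globe and 0.0601 RPKM in Dilkhush peel. These 3 neighbouring rows were thus highest in Bangalore blue peel, at levels below F3'5'H, with LOC100248071 and LOC100853601 low even there. LOC100232896, in the same stretch, was listed at 0 in every peel column. In leaf LOC100248071 was 2.17 RPKM in Bangalore blue, 0.151 RPKM in Red globe and 0.246 RPKM in Dilkhush. The separate LOC100853601 row was 2.69 RPKM in Bangalore blue, 1.30 RPKM in Red globe and 0.98 RPKM in Dilkhush leaf. Both were therefore highest in Bangalore blue in leaf too, unlike F3'5'H, which was close in Bangalore blue and Dilkhush leaf. LOC100242945, the sixth gene on that side, was listed at 0 in every peel column. Outside this stretch, LOC100249986, next to LOC100232896 on its far side, was 194 RPKM in Bangalore blue, 243 RPKM in Red globe and 226 RPKM in Dilkhush peel, with no such difference. Files and RefSeq give these neighbours no name, and reads shared among close copies cannot be told from transcription of each.

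**Figure D5:**
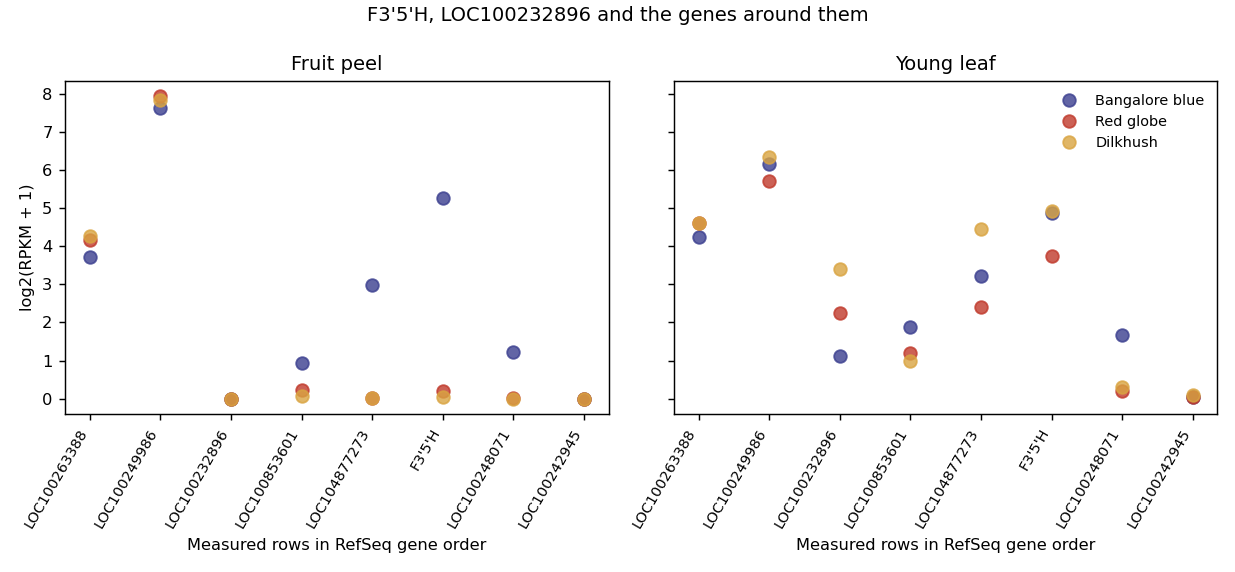
Level as log2(RPKM + 1) of the measured rows around LOC100232896 and F3'5'H, in RefSeq gene order from left to right (not to distance, and leaving out genes without a row of their own), in peel (left) and leaf (right). Each point is the deposited value of a cultivar; the leaf row joining LOC100232896 with LOC100853601 is not drawn. In peel LOC104877273 and F3'5'H stand apart in Bangalore blue, at 6.92 and 37.4 RPKM, while LOC100249986 lies between 194 and 243 RPKM in all 3 cultivars.

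The genes around F3'H were mixed. F3'H and LOC100263810, which share a row in both tables, are separate genes in RefSeq with 1 gene, LOC104882295, between them. That gene was 0.685 RPKM in Bangalore blue peel and listed at 0 in Red globe and Dilkhush peel, and it was between 0.234 and 0.376 RPKM in leaf. LOC100251846, on the far side of LOC100263810, was 27.3 RPKM in Bangalore blue, 28.7 RPKM in Red globe and 24.8 RPKM in Dilkhush peel. The heat shock gene HSP101, on the far side of F3'H, was 18.6 RPKM in Bangalore blue, 11.7 RPKM in Red globe and 19.7 RPKM in Dilkhush peel. In leaf HSP101 was 31.9 RPKM in Bangalore blue, 9.84 RPKM in Red globe and 19.3 RPKM in Dilkhush, the order of F3'H in leaf but not in peel. How the F3'H row divides between its 2 genes cannot be told from the tables.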

How the data were processed

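Libraries came from a directional mRNA kit, per the labels' protocols. The submitters' processing notes name TopHat2 2.1.1 and Cufflinks 2.2.1, and neither genome build, annotation nor merging of libraries is given in the sources used here. The authors deposited RPKM with 1 column per cultivar and tissue, per the file headers, and columns were tied to groups by the initials in the sample titles. Without library columns the planned limma fit was not possible. Differences of log2(RPKM + 1) were described with the 4-fold and 10 RPKM rule over all rows of a table. The deposited values are RPKM and not read counts, so depth is unknown. Members, lists and rules were chosen with earlier results of these data known. Named genes were the members, pathway rows set against them, regulators reaching 10 RPKM, and the nearest rows, 3 each with and without a symbol; neighbouring genes and rows sharing the F3'5'H pattern were added after values were seen. RefSeq gave synonyms and gene order, and without gene descriptions other hydroxylase copies, P450 electron donors and seed markers were not analysed here. The call rule was tested on simulated columns. Python 3.11.15, pandas 2.3.3 and numpy 2.4.6 were used.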

Additional observations from a re-analysis of the deposited data

Results flagged for a closer look

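In 4 cases a difference between cultivars had opposite signs in peel and leaf, each from single values, and the differences between tissues were not tested. For F3'5'H, Bangalore blue minus Dilkhush was 5.22 in peel and -0.06 in leaf on the log2(RPKM + 1) scale, which are 5.27 apart. Red globe minus Dilkhush was 0.16 in peel and -1.17 in leaf for F3'5'H, 1.32 apart, with both peel values near 0. For F3'H, Red globe minus Dilkhush was 1.21 in peel and -0.94 in leaf, 2.14 apart. Bangalore blue minus Red globe was -0.03 in peel and 1.34 in leaf for F3'H, a peel minus leaf value of -1.37, and the peel sign turns with the scaling.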

How the results depend on the processing

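The F3'5'H calls in both Bangalore blue peel comparisons were the same with a pseudocount of 0.1, no floor, and each scaling tried, with log2 differences from 5.22 to 8.13 against Dilkhush and from 5.06 to 7.22 against Red globe. With a pseudocount of 0.1, 30 rows in place of 50 differed more than F3'5'H against Dilkhush. Where 2 columns had to reach 5 RPKM, F3'5'H left the peel table and had no value. F3'H was called in no setting. For F3'H, Bangalore blue minus Red globe peel became 0.0214 with equal medians, a scaling that moved the median of rows at the floor by 0.05 there. No direction is read from it. Scaling to equal totals without transfer RNA moved the median of rows at the floor by 0.15 for Red globe against Dilkhush peel, 0.10 for the same leaves and -0.13 for Bangalore blue against Red globe leaf, and quantile normalization moved it by 0.12 for Red globe against Dilkhush peel.

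Summing the F3'5'H and LOC100232896 rows gave leaf ratios of 0.531, 0.783 and 0.939 in Bangalore blue, Red globe and Dilkhush. The sum leaves out other copies, which could not be identified. Adding 1 RPKM to the F3'5'H row and to the joint F3'H row gave 0.894, 0.0263 and 0.0545 in the peels of these cultivars. The leaves were then at 0.443, 0.518 and 0.609, and the order of Red globe and Dilkhush peel turned. Rows called went from 582 to 878 without a floor and to 379 with the 5 RPKM filter for Bangalore blue against Dilkhush peel, from 553 to 350 with the filter for Red globe against Dilkhush peel, and from 497 to 797 without a floor for Bangalore blue against Red globe peel. In leaf they went from 457 to 715 without a floor and to 268 with the filter for Bangalore blue against Dilkhush, and from 604 to 399 with the filter for Bangalore blue against Red globe.

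No paired analysis was possible because the tables hold 1 column per group, and no replicate was left out for the same reason. A ratio over rows chosen by RefSeq description was not run, since that table has no descriptions. Unknown depth limits what can be said of values near 0.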
